A study of Mus musculus with 12 samples.

Results

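The miR-344 family is a group of related microRNAs (miRNAs) whose hairpins lie together on mouse chromosome 7. The 4 mature miRNAs described here, mmu-miR-344-3p, mmu-miR-344b-3p, mmu-miR-344d-3p and mmu-miR-344h-3p, were chosen by name from the 1915 mature names in the deposited count tables. They were selected on their lower values in R6/2 than in wild-type (WT) striatum, so that difference is given below as a description without a test. No numeric limit came with that choice. The tables hold 15 other names that start with miR-344, which are called relatives below. They are the names left after that choice, so their set also depends on it.

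Small RNA was counted in 12 libraries of mouse striatum, 3 in each of 4 groups. The R6/2 line, B6CBA-Tg(HDexon1)62Gpb/3J, carries exon 1 of the human huntingtin gene with an expanded CAG repeat under the human huntingtin promoter and models Huntington's disease. The line was mated with B6CBAFI/J females, and WT mice served as the other genotype. Each mouse received an adeno-associated virus (AAV) on both sides of the striatum at 5 weeks of age, and tissue was taken at 10.5 weeks. In each genotype 1 group received a control AAV and the other an AAV that carries a short hairpin RNA against TRAX (shTRAX). All 4 groups underwent injection, and no uninjected striatum was analysed here. The labels name neither the promoter of the short hairpin RNA nor the cells that took up the virus. TRAX, encoded by Tsnax, joins translin in an RNA-binding ribonuclease. Counts of miRNAs do not measure its mRNA, which leaves the knockdown unchecked. Nothing in the labels ties replicates to separate mice. The p-values therefore rest on differences among libraries that may be technical.

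A miRNA is cut from a hairpin that can give a product from each arm, named 5p and 3p. The loaded product pairs with messenger RNAs mainly through its seed, bases 2 to 8 from the 5′ end, and lowers their output. miR-344 is known as a brain-expressed rodent family, and its hairpins lie in the imprinted chromosome region that corresponds to the human Prader-Willi and Angelman syndrome region, where Snrpn, Ndn, Magel2 and Mkrn3 are transcribed from the paternal copy.

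The sequences of the 4 members, and of the 2 relatives that share a seed with one of them, show how far the family's targeting letters differ. They are RefSeq mature sequences for build GRCm38.p6, written 5′ to 3′ with the seed in capitals.
mmu-miR-344-3p: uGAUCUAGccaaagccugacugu
mmu-miR-344c-3p: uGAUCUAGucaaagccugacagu
mmu-miR-344b-3p: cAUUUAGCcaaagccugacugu
mmu-miR-344d-3p: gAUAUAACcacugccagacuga
mmu-miR-344e-3p: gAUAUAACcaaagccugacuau
mmu-miR-344h-3p: gGUAUAACcaaagcccgacugu

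The 4 members have 4 different seeds. mmu-miR-344-3p shares its seed with mmu-miR-344c-3p, and the sequences of this pair match at 21 of 23 aligned bases. mmu-miR-344d-3p shares its seed with mmu-miR-344e-3p and, outside the family, with mmu-miR-410-3p of the imprinted Dlk1-Dio3 region. No other mature name with a RefSeq sequence has the seed of mmu-miR-344b-3p or of mmu-miR-344h-3p. The seeds of mmu-miR-344d-3p and mmu-miR-344h-3p are close, and the longest run this pair shares, uauaacca, of 8 bases, lies mostly in the seed. mmu-miR-344-3p and mmu-miR-344b-3p end in the same 18 bases, uagccaaagccugacugu, whereas the longest run found in all 4 members is gacug, of 5 bases. The members are 22 or 23 bases long, with a GC content of 45.5% to 50%. How the counting divided reads between such similar sequences is not given in these sources, so the split of counts between mmu-miR-344-3p, mmu-miR-344b-3p and mmu-miR-344c-3p is uncertain.

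All 13 miR-344 hairpins annotated by RefSeq lie on the minus strand of chromosome 7 (GRCm38.p6) between positions 61683124 and 62085310, a span of 402.187 kb that holds no other annotated hairpin. In the direction of transcription the order is Mir344i, Mir344f, Mir344g, Mir344-2, Mir344, Mir344c, Mir344b, Mir344h-2, Mir344h-1, Mir344e, Mir344d-3, Mir344d-2 and Mir344d-1. The Mir344 hairpin at 61877770 to 61877864, Mir344c, Mir344b at 61790519 to 61790581, both Mir344h hairpins, Mir344e and Mir344d-3 at 61726249 to 61726328 are intronic, within the same-strand long noncoding RNA A230057D06Rik (GENCODE M21). Mir344-2 at 61940027 to 61940106 lies in an intron of the same-strand transcript A330076H08Rik. Mir344g at 61982289 to 61982359 lies mostly within an exon at the edge of the same transcript, and the other 4 hairpins overlap no annotated gene. The nearest of the imprinted genes named above is Ndn, 261.259 kb away on the upstream side, and Snrpn is 1542.905 kb away on the downstream side. mmu-miR-344-3p and mmu-miR-344h-3p each come from 2 hairpins and mmu-miR-344d-3p from 3, and counts cannot say which copy was transcribed. The deposited rows of 1 name differed between hairpins by at most 1, 0 and 12 counts respectively.

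Libraries held 13849777 to 16907910 counts over the mature names, and replicates of every group differed by more than counting error. R6/2 shTRAX replicate 3 stood apart, with a first principal component score of 25.59 against -5.47 to 0.55 in the other 11 libraries. Relative to each miRNA's mean over the 12 libraries, levels in this library also rose with the GC content of the mature sequence. The Spearman rho of these log2 deviations with GC content across 564 miRNAs was 0.608, against -0.36 to 0.096 in the other libraries. That rho was -0.36 to -0.234 in the R6/2 control libraries and -0.152 to 0.096 in the WT control libraries. Neuronal marker miRNAs, 7 of 7 detected, summed to 204509 to 273492 CPM (counts scaled to library size with TMM factors), with overlap between all groups, and no member of any of the 9 marker lists was at 0 throughout.

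The 4 members differed widely in abundance. mmu-miR-344-3p ranked 96th of the mature names by mean level over the 12 libraries, mmu-miR-344d-3p 171st, mmu-miR-344b-3p 173rd and mmu-miR-344h-3p 649th. These ranks compare sequenced counts, which depend on how well each sequence is ligated as well as on its amount. Together the members made up 97.4% to 98.3% of all miR-344 counts, and mmu-miR-344-3p alone 64.4% to 75.3% of the members' counts. Over all 19 miR-344 names the summed level was 910 to 1157 CPM in R6/2 and 1427 to 1708 CPM in WT, without overlap.

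mmu-miR-344-3p, the most abundant member, stood at 1053, 1069 and 1117 CPM in WT control and at 1181, 929 and 966 CPM in WT shTRAX. It stood at 852, 737 and 738 CPM in R6/2 control and at 708, 709 and 576 CPM in R6/2 shTRAX. The highest R6/2 library thus lay below the lowest WT library, with the narrowest gap between R6/2 control replicate 1 and WT shTRAX replicate 2. The group means were 1079.8 ± 33.05 CPM in WT control and 776 ± 66.1 CPM in R6/2 control (SD, n = 3), so R6/2 held 71.8% of the WT level under control AAV. Under shTRAX AAV it held 64.8%, from 1025 ± 136 CPM in WT and 664 ± 76.3 CPM in R6/2.

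mmu-miR-344b-3p was the least variable member within groups. Its level was 235, 229.6 and 224 CPM in WT control, and 231, 232 and 235 CPM in WT shTRAX. In R6/2 control it was 144, 148 and 138 CPM, and in R6/2 shTRAX 135, 138 and 129 CPM. The genotypes were far apart relative to this spread, and the AAV groups within each genotype overlapped. R6/2 held 62.4% of the WT level under control AAV and 57.5% under shTRAX AAV.

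mmu-miR-344d-3p, made from 3 hairpins at the downstream end of the cluster, stood at 249, 228 and 244 CPM in WT control and 256, 228 and 224 CPM in WT shTRAX. In R6/2 control it stood at 135, 139 and 129 CPM, and in R6/2 shTRAX at 121, 131 and 189.8 CPM. The last value belongs to replicate 3, the library that stood apart, and it was the only R6/2 library above 139 CPM. It remained below every WT library. R6/2 held 55.8% of the WT level under control AAV and 62.4% under shTRAX AAV.

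mmu-miR-344h-3p was rare, and its counts are given instead of its level. It had 16, 14 and 27 counts in WT control, 14, 11 and 20 in WT shTRAX, 7, 7 and 9 in R6/2 control and 3, 3 and 2 in R6/2 shTRAX. The R6/2 counts all lay below the WT counts, and the 3 R6/2 shTRAX libraries were the lowest of the 12. Summed over replicates and scaled by library size, the R6/2 to WT ratio was 0.475 under control AAV, from 23 and 57 counts. Under shTRAX AAV it was 0.198, from 8 and 45 counts. No interval is given for these ratios, because the member was selected on this difference. The labels do not say whether the kit's molecular identifiers were used in counting. This miRNA passed the filter on low counts over all libraries through its WT values.

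**Figure D1:**
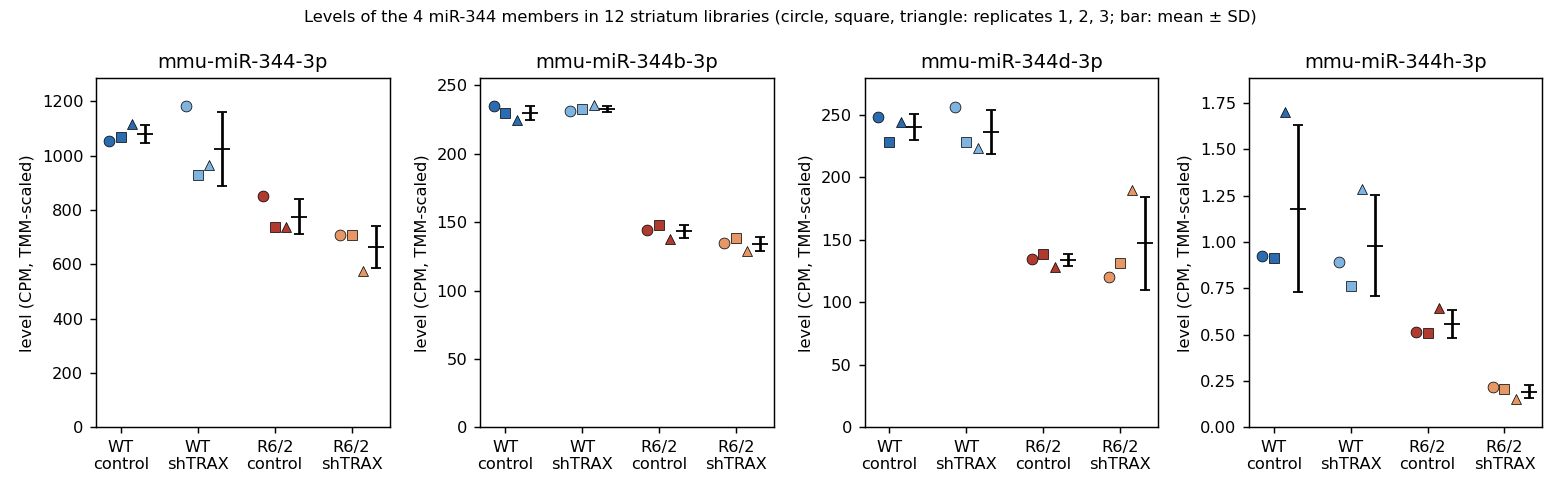
Level of each member (vertical axis, TMM-scaled CPM from 0) in each of the 12 libraries, by group on the horizontal axis, with circles, squares and triangles for replicates 1, 2 and 3 and a bar for the mean ± SD. All R6/2 points lie below all WT points in the 4 panels, and R6/2 shTRAX replicate 3 is the high point of its group for mmu-miR-344d-3p at 189.8 CPM.

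All 4 members had the 6 R6/2 libraries below the 6 WT libraries, a pattern held by 4.93% of the 689 miRNAs tested, or 34 miRNAs. Since the members were selected on this difference, nothing is read from that count. For the same reason their fitted fold changes are given without p-values, beside the percentage of miRNAs called lower in R6/2, 3.34% under control AAV and 5.81% under shTRAX AAV. Under control AAV the log2 fold change of R6/2 over WT was -0.48 ± 0.13 (SE) for mmu-miR-344-3p, -0.68 ± 0.10 for mmu-miR-344b-3p, -0.84 ± 0.16 for mmu-miR-344d-3p and -1.07 ± 0.34 for mmu-miR-344h-3p. Under shTRAX AAV it was -0.63 ± 0.13, -0.80 ± 0.10, -0.68 ± 0.16 and -2.29 ± 0.41 in the same order. The median over the members was -0.76 under control AAV and -0.74 under shTRAX AAV, against 0.03 and 0.04 over all miRNAs tested.

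Without R6/2 shTRAX replicate 3 the value under shTRAX AAV was -0.53 for mmu-miR-344-3p, -0.77 for mmu-miR-344b-3p, -0.90 for mmu-miR-344d-3p and -2.16 for mmu-miR-344h-3p. With offsets for GC content the values under control AAV were -0.39, -0.65, -0.81 and -0.95 in that order. Under shTRAX AAV they were -0.56, -0.69, -0.56 and -2.28. In bulk striatum, fewer cells of a type and less RNA per cell cannot be told apart. Under control AAV the summed level of 6 vessel markers was higher in R6/2 than in WT, at 35827 to 38813 against 30967 to 31214 CPM, and that of 4 muscle markers lower, at 1084 to 1239 against 1337 to 1489 CPM. The other 7 marker lists overlapped between the genotypes, and under shTRAX AAV all 9 overlapped. Single markers were called by edgeR under shTRAX AAV, where 95 of all 689 miRNAs were called. Of 7 neuronal markers 1 was called, mmu-miR-124-3p, lower in R6/2 at a log2 fold change of -0.68 ± 0.18. Of 6 microglial and blood-derived markers 1 was called, mmu-miR-142a-3p, lower at -2.40 ± 0.65. Of 4 muscle markers it was mmu-miR-206-3p, lower at -0.78 ± 0.22, and of 6 vessel markers mmu-miR-195a-5p, higher at 0.58 ± 0.13. The other lists had no call. Under control AAV, where 73 of all 689 miRNAs were called, the single marker called was mmu-miR-206-3p, lower at -1.29 ± 0.22. The part of these markers' cell types in the members' difference was not tested.

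The members did not fall in equal proportion in every library. For each 100 counts of mmu-miR-344-3p, mmu-miR-344d-3p gave 21.4 to 24.6 counts in the 6 WT libraries and 15.8 to 18.8 in 5 of the 6 R6/2 libraries. R6/2 shTRAX replicate 3 gave 32.9, the highest of the 12. mmu-miR-344b-3p gave 19.6 to 25.0 counts per 100 in WT and 16.9 to 22.3 in R6/2, so the genotypes overlapped. Between mmu-miR-344d-3p and mmu-miR-344b-3p, which have the same GC content, the ratio was 95.1 to 111 per 100 in WT and 89.5 to 94.9 in R6/2 apart from replicate 3 of shTRAX, which reached 148. These ratios do not depend on library scaling, and as differences between genotypes they were not tested, because the same counts chose the members.

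**Figure D2:**
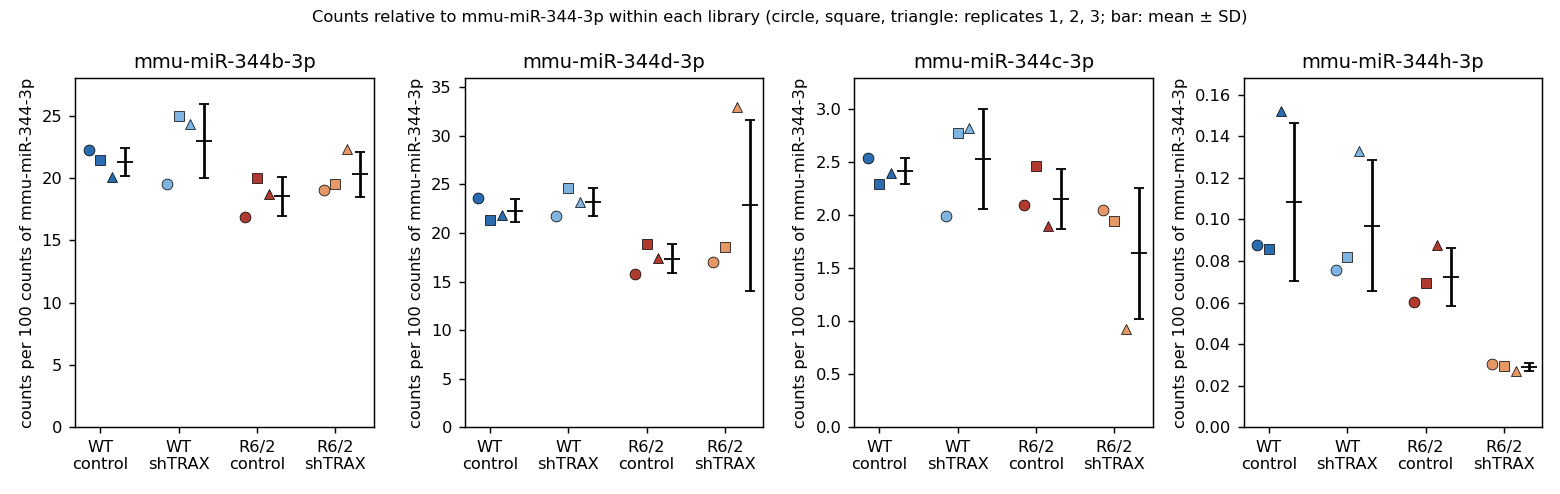
Counts of mmu-miR-344b-3p, mmu-miR-344d-3p, mmu-miR-344c-3p and mmu-miR-344h-3p per 100 counts of mmu-miR-344-3p (vertical axes from 0) in each library by group, with circles, squares and triangles for replicates 1, 2 and 3 and a bar for the mean ± SD. R6/2 shTRAX replicate 3 is the highest library for mmu-miR-344d-3p, at 32.9, and the lowest for mmu-miR-344c-3p, at 0.928.

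Whether shTRAX changed the members is a comparison that their selection did not use directly, although it shares all of its libraries with the genotype contrasts. No member was called in either genotype by edgeR's quasi-likelihood test with Benjamini-Hochberg adjustment over all miRNAs. In R6/2 the background was 0.0% of 651 miRNAs called, with 68 at an unadjusted p under 0.05 and 13 called by DESeq2, none of them a member. In WT it was 0.15%, 1 of 665, with 50 at an unadjusted p under 0.05 and 4 called by DESeq2, again with no member.

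In R6/2 the log2 fold change of shTRAX over control AAV was -0.20 ± 0.14 (SE) for mmu-miR-344-3p, with an edgeR adjusted p of 0.498. It was -0.07 ± 0.13 for mmu-miR-344b-3p, with an edgeR adjusted p of 0.719, and 0.15 ± 0.19 for mmu-miR-344d-3p, with 0.641. Without the replicate 3 library of the shTRAX group the last value turned to -0.06. mmu-miR-344h-3p did not pass the count filter in R6/2 alone. Its summed counts gave a shTRAX to control ratio of 0.349, from 8 and 23 counts. No interval is given for this ratio, because its low R6/2 counts were among the values behind its selection. The authors' deposited table gave this miRNA a fold change of -2.82, a fall written as the negative inverse ratio, with an adjusted p of 0.595.

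In WT the fold changes were smaller than their own errors. They were -0.08 ± 0.12 for mmu-miR-344-3p, 0.02 ± 0.09 for mmu-miR-344b-3p, -0.03 ± 0.11 for mmu-miR-344d-3p and -0.26 ± 0.36 for mmu-miR-344h-3p on the log2 scale, with edgeR adjusted p-values from 0.858 to 0.946. The authors' deposited table gave signed folds of -1.04, 1.02, -1.01 and -1.20 for the same miRNAs. A p that misses the threshold does not show that shTRAX left these miRNAs alone, and for mmu-miR-344h-3p the exact interval of the count ratio, 0.555 to 1.26, still spans both directions.

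The shTRAX effect was also compared between genotypes. The difference of log2 fold changes, R6/2 minus WT, was -0.15 ± 0.19 for mmu-miR-344-3p, -0.12 ± 0.14 for mmu-miR-344b-3p and 0.16 ± 0.23 for mmu-miR-344d-3p. For mmu-miR-344h-3p it was -1.22 ± 0.55, with an unadjusted p of 0.048 and an adjusted p of 0.469 (edgeR), and it was -1.11 without R6/2 shTRAX replicate 3. That value rests on 8 and 23 counts in R6/2 shTRAX and R6/2 control, and this miRNA passed the filter through its WT counts. Its low R6/2 counts were also among the values behind its selection, so nothing is read from the unadjusted p. No miRNA passed the threshold in this comparison, 0.0% of 689, with 61 at an unadjusted p under 0.05 and 2 called by DESeq2, neither of them a member.

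**Figure D3:**
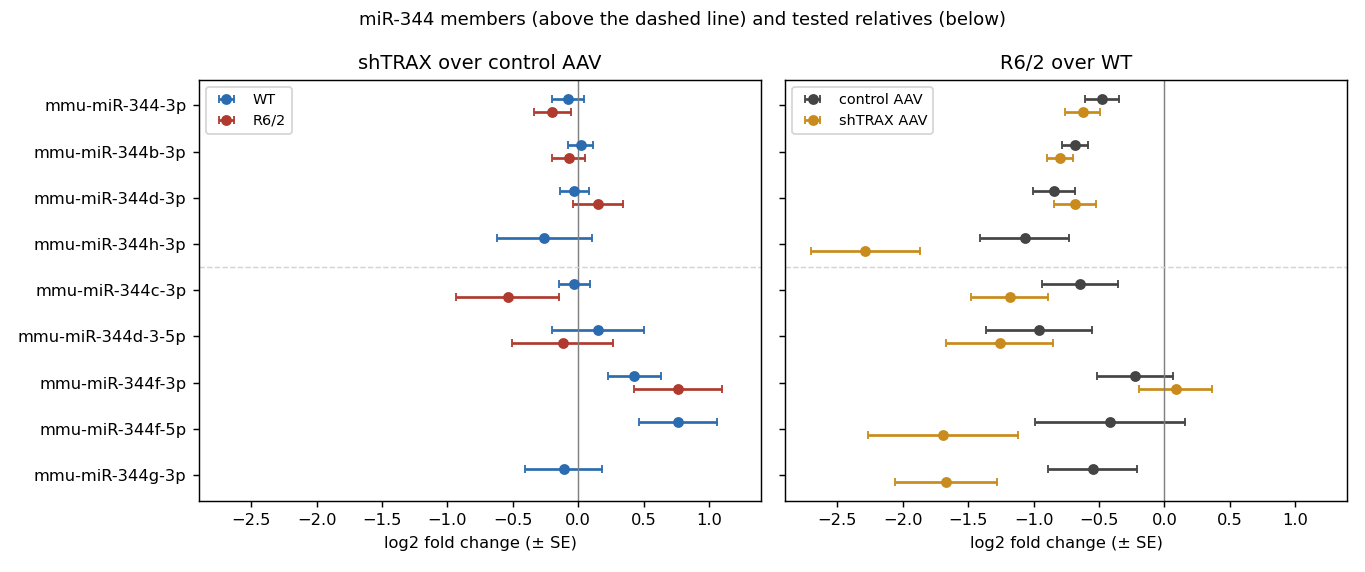
Log2 fold change with its SE (horizontal axes) for the 4 members, above the dashed line, and 5 relatives, below it, for shTRAX over control AAV within each genotype (left) and R6/2 over WT under each AAV (right). For shTRAX in R6/2 only the 3 members and 3 relatives that passed the filter in that fit are drawn. The shTRAX values of mmu-miR-344-3p, mmu-miR-344b-3p and mmu-miR-344d-3p lie between -0.20 and 0.15, and their genotype values between -0.84 and -0.48.

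The relatives show whether the genotype difference extended to miR-344 products that the selection left out. Only 5 of the 15 passed the count filter, mmu-miR-344c-3p, mmu-miR-344d-3-5p, mmu-miR-344f-3p, mmu-miR-344f-5p and mmu-miR-344g-3p. They share a locus with the members and are not independent of them. Of these, mmu-miR-344g-3p and mmu-miR-344f-5p did not pass it in R6/2 alone and entered through their higher WT counts, which favours a lower value in R6/2. Under shTRAX AAV 2 of the 5 were called lower in R6/2 by edgeR, mmu-miR-344c-3p and mmu-miR-344g-3p, against the 5.81% called lower among all miRNAs, and only mmu-miR-344c-3p is among the 3 that also passed the filter in R6/2 alone. Under control AAV none was called lower, against 3.34% of all miRNAs by edgeR and 7.02% by DESeq2. There 5 of 5 fold changes were below 0, as were 47.2% of all, and 2 of 5 had an unadjusted p under 0.05, as had 23.9% of all. Whether the genotype difference of these relatives itself changed between the AAVs was tested by the same difference of fold changes as above, and none passed.

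mmu-miR-344c-3p, which has the seed of mmu-miR-344-3p, stood at 26.7, 24.5 and 26.7 CPM in WT control and 23.5, 25.8 and 27.2 CPM in WT shTRAX. In R6/2 control it stood at 17.8, 18.1 and 14 CPM, and in R6/2 shTRAX at 14.5, 13.8 and 5.35 CPM. The genotypes did not overlap, and replicate 3 of R6/2 shTRAX was the lowest library by a wide margin. The log2 fold change was -0.64 ± 0.29 under control AAV, with an edgeR adjusted p of 0.206, and -1.18 ± 0.30 under shTRAX AAV, with an edgeR adjusted p of 0.0264. Without R6/2 shTRAX replicate 3 the values were -0.63 and -0.85, and both passed, with edgeR adjusted p-values of 0.00253 and 0.00128. Without any 1 of the WT shTRAX libraries the call under shTRAX AAV was lost, at adjusted p-values of 0.0566, 0.0728 and 0.0808 for replicates 1, 2 and 3. With only the 6 shTRAX libraries in the fit it was 0.192.

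mmu-miR-344g-3p, from a hairpin at the edge of A330076H08Rik, had 22, 21 and 19 counts in WT control, 12, 21 and 21 in WT shTRAX, 8, 14 and 14 in R6/2 control and 3, 5 and 7 in R6/2 shTRAX. Under each AAV the counts of R6/2 lay below those of WT, but WT shTRAX replicate 1 lay below 2 of the R6/2 control libraries. Since it passed the count filter only through its WT libraries, where it is high, the test below is no independent support for a lower value in R6/2. Its log2 fold change was -1.67 ± 0.39 under shTRAX AAV, with an edgeR adjusted p of 0.0229, and -0.55 ± 0.34 under control AAV, with 0.38. The call was lost without WT shTRAX replicate 2 or 3, at adjusted p-values of 0.0681 and 0.0691, and with only the 6 shTRAX libraries in the fit, at 0.165.

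The other 3 tested relatives were not called. mmu-miR-344d-3-5p, the opposite arm of a hairpin that makes mmu-miR-344d-3p, had a log2 fold change of -0.96 ± 0.40 under control AAV and -1.26 ± 0.41 under shTRAX AAV, with edgeR adjusted p-values of 0.166 and 0.0625. Its level was 3.86 to 9.19 CPM in WT and 1.32 to 3.67 CPM in R6/2, without overlap. mmu-miR-344f-5p had -0.41 ± 0.57 and -1.70 ± 0.58, with adjusted p-values of 0.727 and 0.0753. mmu-miR-344f-3p, from the other arm of that hairpin, had -0.22 ± 0.29 and 0.09 ± 0.28, and the latter turned to -0.03 when libraries were scaled by total count and to -0.26 without R6/2 shTRAX replicate 3. DESeq2 called 4 of the 5 lower under shTRAX AAV, all but mmu-miR-344f-3p, against 9.8% of the 684 miRNAs with an adjusted p. Of these 4, mmu-miR-344g-3p and mmu-miR-344f-5p entered through WT.

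For shTRAX against control AAV, none of the 3 relatives tested in R6/2 and none of the 5 tested in WT was called by edgeR or DESeq2. mmu-miR-344f-3p had the largest positive value of the relatives tested in R6/2, 0.76 ± 0.33 on the log2 scale with an edgeR adjusted p of 0.428, and 0.43 ± 0.20 in WT with 0.623. mmu-miR-344f-5p had 0.76 ± 0.30 in WT, with an unadjusted p of 0.033 and an edgeR adjusted p of 0.609, and it was the only relative with an unadjusted p under 0.05 in either genotype. Its counts gave a shTRAX to control ratio of 1.71 in WT (exact 95% interval 1.11 to 2.67, from 58 and 36 counts, counting error only). mmu-miR-344c-3p had -0.54 ± 0.39 in R6/2, which was -0.20 without replicate 3 of the shTRAX group.

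The 10 relatives that were not tested were scarce. mmu-miR-344i had 0 counts in all 12 libraries, which allows up to 0.173 to 0.233 CPM per library at a limit of 3 counts. The other 9 had between 1 and 47 counts over all 12 libraries together, too few to compare groups at this depth. mmu-miR-344e-3p, which has the seed of mmu-miR-344d-3p, had 3.

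**Figure D4:**
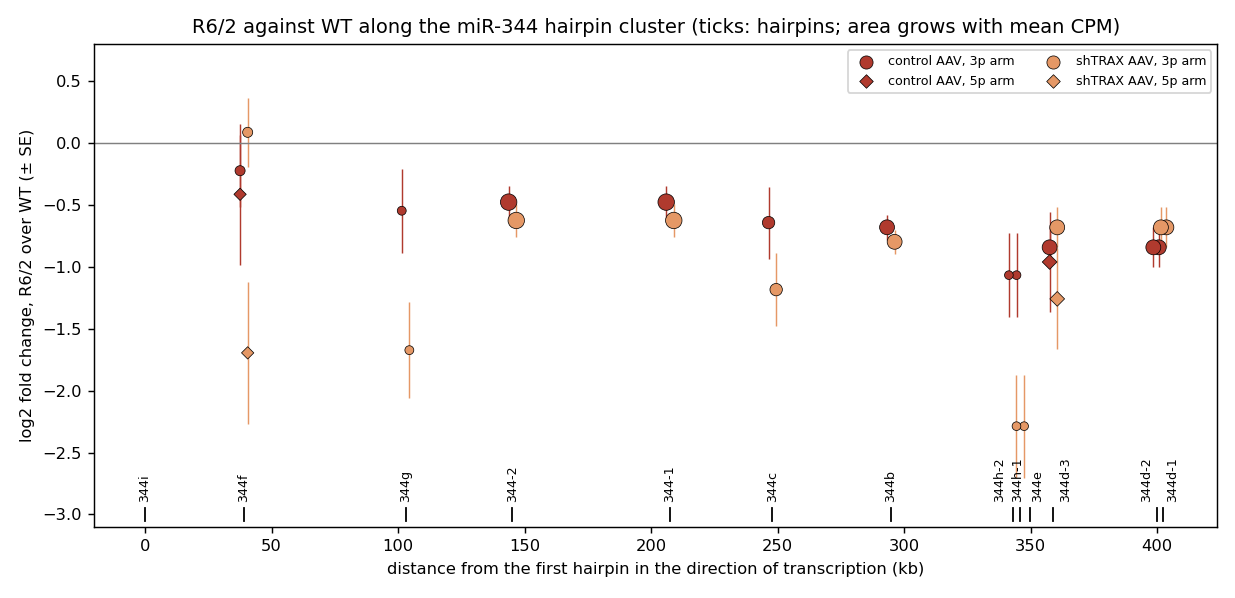
Log2 fold change of R6/2 over WT with its SE (vertical axis) for each tested miR-344 product at its hairpin's distance, in kb, from the first hairpin in the direction of transcription, under control AAV (dark) and shTRAX AAV (light), with circles for 3p and diamonds for 5p arms and larger symbols for higher mean CPM. A miRNA made by several hairpins is drawn at each with the same value, and under control AAV the values run from -0.22 at Mir344f to -1.07 at the Mir344h hairpins.

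Along the cluster, the log2 fold changes under control AAV were -0.22 for mmu-miR-344f-3p at 39.1 kb from the first hairpin, -0.55 for mmu-miR-344g-3p at 103 kb, and -0.48 for mmu-miR-344-3p at 145 and 207 kb. Further along they were -0.64 for mmu-miR-344c-3p at 248 kb, -0.68 for mmu-miR-344b-3p at 295 kb and -1.07 for mmu-miR-344h-3p at 343 and 346 kb. mmu-miR-344d-3p, with hairpins at 359, 399.96 and 402 kb, had -0.84. The 5p products had -0.41 for mmu-miR-344f-5p at 39.1 kb and -0.96 for mmu-miR-344d-3-5p at 359 kb. Values nearer the end of the cluster were lower than those near its start, but neighbouring values differed by less than the sum of their errors. The members, selected for low values in R6/2, all lie from 145 kb on, and mmu-miR-344h-3p passed the filter through its WT counts. The selection thus bears on this order, and nothing is read from it. Under shTRAX AAV the order was not the same, with -1.67 for mmu-miR-344g-3p near the start. No trend was tested.

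Arm use differed strongly between hairpins. Over all 12 libraries the 5p arm made up 0.0296% of the counts of miR-344 and 0.00904% of those of miR-344b, 2.10% of miR-344d and 10.1% of miR-344h (exact 95% interval 5.78% to 16.2%, from 15 and 133 counts, counting error only). Thus the 3p arm was the dominant product of every hairpin name that gives a member. In miR-344e it was the reverse, with 43 of 46 counts on the 5p arm. miR-344e-5p and miR-344h-5p have the same RefSeq sequence, so their counts of 43 and 15 depend on how reads were assigned.

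Outside the family, mmu-miR-410-3p shares the seed of mmu-miR-344d-3p without sharing its locus. It stood at 15, 14.6 and 15.1 CPM in WT control and 13.9, 13.7 and 14.1 CPM in R6/2 control. In the shTRAX groups it stood at 18.3, 18 and 18.8 CPM in WT and 17, 14.6 and 8.84 CPM in R6/2, with the lowest value in replicate 3. Under each AAV the R6/2 values lay below the WT values, narrowly under control AAV, but over both AAVs the genotypes overlapped. How many of all miRNAs separate in this way within an AAV was not counted. The log2 fold change of mmu-miR-410-3p was -0.10 ± 0.20 under control AAV and -0.45 ± 0.20 under shTRAX AAV, with edgeR adjusted p-values of 0.806 and 0.151.

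The miRNAs whose levels over the 12 libraries were most like the mean profile of the members were ranked by the root mean square difference of log2 deviations, among 680 miRNAs. They were mmu-miR-22-3p at 0.177, mmu-miR-221-3p at 0.183, mmu-miR-411-3p at 0.190, mmu-miR-139-5p at 0.219 and mmu-miR-222-5p at 0.231, against a median of 0.622. The members themselves lay 0.162 (mmu-miR-344b-3p) to 0.522 (mmu-miR-344h-3p) from their mean. Without R6/2 shTRAX replicate 3, 4 of the 5 names stayed among the 5 nearest, and with Pearson's r in place of this measure 3 of the 5 did. The 12 libraries share the genotype and depth structure, so this likeness is a description. Under control AAV mmu-miR-22-3p had a log2 fold change of R6/2 over WT of -0.65 ± 0.13 and mmu-miR-221-3p of -0.70 ± 0.12, near the median of the members. The activity-induced pair mmu-miR-132-3p and mmu-miR-212-3p had larger differences, of -1.71 ± 0.19 and -1.63 ± 0.13.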

How the data were processed

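The deposited tables hold raw read counts per mature miRNA and precursor, per the file headers, with the authors' RPM values and p-values and adjusted p-values beside them. A signed fold score (shTRAX relative to control, negative for a fall) was also deposited by the authors. The submitters' processing notes name bcl2fastq 2.20, Trimmomatic and build GRCm38. Aligner, counting program, the authors' test and the handling of molecular identifiers are not stated in these sources. Every per-sample column was mapped to a sample.

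The highest-mean row was kept for each name, since 81 of 1915 names had several. The test was edgeR 4.0.16 under R 4.3.3 (TMM, filterByExpr with a minimum count of 10, quasi-likelihood test, Benjamini-Hochberg adjustment over all miRNAs, threshold 0.05). The shTRAX effect was fitted within a genotype over 6 libraries, and genotype differences and the interaction over all 12. CPM was computed from counts with TMM factors and is not the deposited RPM. Exact intervals are conditional binomial or Clopper-Pearson at 95%. They rest on counts summed over libraries and leave out differences between libraries. If counts include copies of the same molecule, they are too narrow.

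Likeness used log2 CPM, with 0.5 added to each count before scaling. Sequences are RefSeq's, matched by name for all 19 miR-344 names. GC content came from the mature sequence. Alternatives were RLE and total-count scaling, other filters, DESeq2 1.42.0, all or summed precursor rows, a replicate block, the libraries in the fit, GC offsets and leaving out each library. The procedure was also run on simulated counts with 1 common spread for all miRNAs and no library set apart, unlike these data. No result here rests on that run.

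The members and lists were chosen with earlier results of these data known. Named miRNAs are the members, the miR-344 relatives, the 5 nearest by profile, sharers of a seed, and arms of miR-132, miR-212, miR-221 and miR-222.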

Additional observations from a re-analysis of the deposited data

How the results depend on the processing

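No member was called for shTRAX in R6/2, in WT or for their difference under any alternative run, and every member's R6/2 to WT fold change stayed below 0. For relatives called under control AAV (0), 1 was called with only the 6 control libraries in the fit, and 0 to 1 when leaving out 1 library (1 without R6/2 shTRAX replicate 3). Under shTRAX AAV (2), 1 was called with the stricter filter, which left 3 tested, 4 by DESeq2, 0 with only the 6 shTRAX libraries, and 0 to 3 when leaving out 1 library. The cause was not tested. Among all miRNAs the 73 of 689 called under control AAV became 46 of 1440 without a filter and 36 of 564 with GC offsets. They became 232 of 660 with only its 6 libraries and 210 of 700 without R6/2 shTRAX replicate 3. Without R6/2 control replicate 2 or 3 or any 1 WT control library they became 40 to 48. With every precursor row 151 of 801 rows were called, where 1 miRNA can count several times. The 95 of 689 under shTRAX AAV became 2 of 650 with only its 6 libraries and 60 of 564 with GC offsets. Without any 1 WT shTRAX library they became 38 to 51, and with every precursor row 149 of 801 rows were called. The number tested also differed between the runs below. For shTRAX in R6/2 the 0 calls became 13 by DESeq2, 1 with all 12 libraries in the fit, 3 when control replicate 2 and 4 when shTRAX replicate 3 of R6/2 was left out. For shTRAX in WT the 1 call became 4 without a filter and by DESeq2, 2 with GC offsets, 57 when shTRAX replicate 1 and 2 when shTRAX replicate 3 of WT was left out, and 0 with all 12 libraries or without any other 1 library. For the difference between genotypes the 0 calls became 2 by DESeq2. The signs that turned were of uncalled log2 values. For shTRAX in WT, mmu-miR-344b-3p was -0.0077 without a filter and -0.013 with GC offsets. mmu-miR-344f-3p turned to -0.064 for the difference between genotypes with GC offsets, and for R6/2 against WT under shTRAX AAV to -0.034 with total counts and -0.14 with GC offsets. When leaving out 1 library at a time, shTRAX in WT ran from -0.030 to 0.035 for mmu-miR-344b-3p, -0.12 to 0.0086 for mmu-miR-344d-3p, -0.50 to 0.059 for mmu-miR-344h-3p, -0.42 to 0.37 for mmu-miR-344d-3-5p and -0.28 to 0.10 for mmu-miR-344g-3p. shTRAX in R6/2 ran from -0.057 to 0.27 for mmu-miR-344d-3p and -0.43 to 0.17 for mmu-miR-344d-3-5p. The difference between genotypes ran from -0.081 to 0.22 for mmu-miR-344d-3p, -0.65 to 0.20 for mmu-miR-344d-3-5p and -0.049 to 0.49 for mmu-miR-344f-3p. R6/2 against WT ran from -1.30 to 0.014 for mmu-miR-344f-5p under control AAV and from -0.26 to 0.29 for mmu-miR-344f-3p under shTRAX AAV. mmu-miR-344h-3p and the rare relatives are limited by depth.

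No pairing of the libraries by replicate number was seen. Same-number correlations of deviations ran from -0.296 to 0.261, and those between different numbers from -0.393 to 0.391. With the replicate block 0 members were called, 2 relatives under shTRAX AAV remained called, and of all miRNAs 59 were called under each AAV.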
